A study of Mus musculus with 4 samples.

Results

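Kappa light chain variable segments are the 160 gene symbols beginning with Igkv among 54152 symbols in the deposited table. The rule reads the symbol and no measured value. All 160 lie on mouse chromosome 6, in mm10 between chr6:67555497 and 70704177, upstream of the single kappa constant gene Igkc (chr6:70726435-70726966), and the GENCODE annotation lists 100 of them as functional V genes and 60 as pseudogenes. The samples were whole uteri taken on day 4 of pregnancy from mice of strain C57. There were 2 libraries of genotype P38α ff and 2 of genotype P38α dd, which by the title are the wild type and the P38α knockout. No other allele or agent is named in the labels, neither the Cre driver nor the deleted part of the gene is given, and whether the replicates of a group were different animals is not said. The p-values therefore cover the spread among these 4 samples, which may be technical.

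An antibody light chain is made when a developing B cell joins a V segment to a J segment and splices the product to the constant exon. Each B cell normally keeps a single productive light chain, and its daughters inherit it, so the mix of V segments in a tissue's RNA reflects which antibody-making clones are there and how much transcript each makes. Plasma cells, the antibody-secreting end stage, hold by far the most of this RNA, and in mucosal tissues such as the uterus many of them make IgA, which the epithelium carries into the lumen. The most common light chain type in mice is kappa.

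The last 60 coding bases of 8 segments are shown, 5′ to 3′ on the coding strand, from the GENCODE transcripts of mm10; the capitals mark the last cysteine codon in frame, behind which the germline part of the antigen-contacting CDR3 loop begins. Of the first 4, Igkv10-96 led dd 2, Igkv1-110 led dd 1 and Igkv3-5 lacked ff counts. Igkv6-17 ranked 2 in dd 1 and 5 in both dd 2 and ff 2. The other 4 each took at least 10% of kappa V counts in an ff library.
Igkv10-96, chr6:68631963-68632022, minus strand: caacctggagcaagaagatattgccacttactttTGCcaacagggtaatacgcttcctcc
Igkv1-110, chr6:68271208-68271267, plus strand: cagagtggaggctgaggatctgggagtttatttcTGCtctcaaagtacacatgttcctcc
Igkv6-17, chr6:70371934-70371993, plus strand: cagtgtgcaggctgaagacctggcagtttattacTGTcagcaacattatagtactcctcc
Igkv3-5, chr6:70663836-70663895, plus strand: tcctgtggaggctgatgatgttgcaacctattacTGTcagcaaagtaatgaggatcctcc
Igkv6-13, chr6:70457501-70457560, minus strand: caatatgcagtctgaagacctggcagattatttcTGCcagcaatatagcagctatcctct
Igkv4-55, chr6:69607275-69607334, minus strand: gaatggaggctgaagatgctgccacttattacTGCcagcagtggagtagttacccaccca
Igkv4-61, chr6:69416893-69416952, minus strand: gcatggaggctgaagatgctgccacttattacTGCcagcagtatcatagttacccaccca
Igkv5-43, chr6:69823355-69823414, minus strand: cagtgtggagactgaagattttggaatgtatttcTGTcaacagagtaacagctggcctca

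The table separates close relatives only as far as the authors' counting did, and the handling of reads that fit several near-identical segments is not stated in those sources used here. Coding sequences were 338 to 371 bases long. Of the 70 segments tested, 34 were at least 95% identical over aligned coding bases to another functional segment. The pair Igkv10-94 and Igkv10-96, 95.4% identical, is shown over its last 120 coding bases with the 12 differing bases in capitals, because their counts went apart.
Igkv10-94, chr6:68704508-68704627, minus strand: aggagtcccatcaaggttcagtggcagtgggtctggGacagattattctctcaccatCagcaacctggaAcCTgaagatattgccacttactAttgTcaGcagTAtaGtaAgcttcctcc
Igkv10-96, chr6:68631963-68632082, minus strand: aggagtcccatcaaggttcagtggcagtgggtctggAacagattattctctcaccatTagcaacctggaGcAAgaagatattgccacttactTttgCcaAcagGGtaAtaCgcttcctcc
In Igkv10-96 the libraries held 120, 213, 388 and 2237 counts (ff 1, ff 2, dd 1 and dd 2, the order used below), and in Igkv10-94 they held 120, 192, 232 and 368. The counts of the pair were alike in both ff libraries, and Igkv10-96 had more in both dd libraries. The remaining member of their family, Igkv10-95, is 97.1% identical to Igkv10-94 and had 0, 5, 2 and 1 counts. Igkv5-43 and Igkv5-45, 98.6% identical, likewise had unlike counts, 240, 207, 325 and 875 against 0, 1, 6 and 22. Antisense partners did not enter: 1 segment, Igkv2-137, overlaps another annotated gene, on its own strand, and it had no count.

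Libraries held 24619850 to 32451670 counts. Mapk14, which encodes p38α, had 3074, 2710, 2481 and 3429 counts, 89.6 ± 3.77 against 109.0 ± 5.79 CPM (SD, n = 2), and RNA of the targeted gene was thus no lower where the label reads dd. CPM are counts scaled to 1000000 per library, with library sizes adjusted by TMM, a trimmed-mean normalisation. Every direction below rests on the labels ff and dd. Epithelial and stromal markers were present in all libraries, with summed levels of 917.7 to 2818 CPM and 6760 to 14324 CPM. Of 18530 genes tested with edgeR, 8.39% passed in either direction at an adjusted p under 0.05.

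Kappa V transcripts were more abundant in both dd libraries. The 160 segments together had 1741, 2375, 10263 and 32349 counts. On the CPM scale these were 52.3, 76.2, 434.0 and 1067. The lower dd library stood 5.70-fold above the higher ff library, and the dd libraries differed 2.46-fold from each other. The mean rose from 64.2 ± 16.9 in ff to 750.4 ± 447.5 CPM in dd (SD, n = 2), 11.7-fold, with no test since the members were chosen with earlier results known. This fold became 16.7 when dd replicate 1 was left out and 6.77 when dd replicate 2 was. In bulk tissue, fewer cells of a type and less RNA per cell cannot be told apart.

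**Figure D1:**
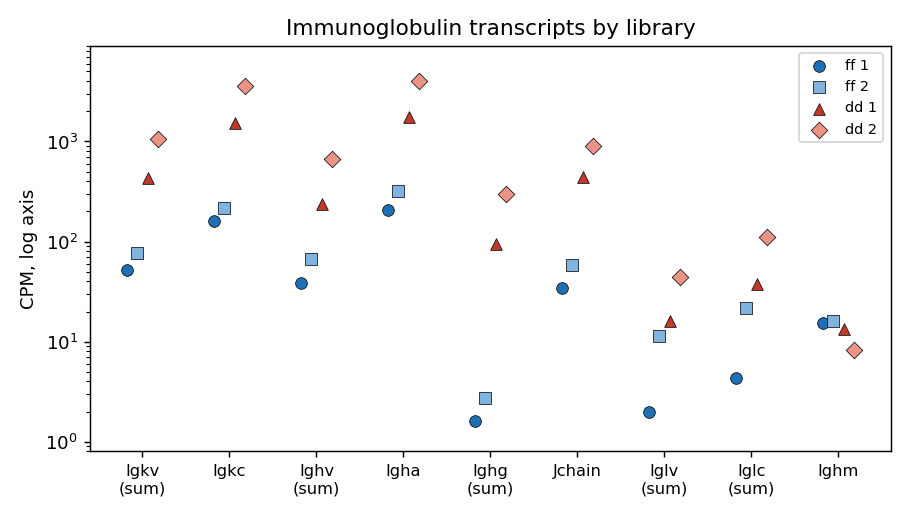
Level of kappa V segments (Igkv, summed) and of other immunoglobulin transcripts in each of the 4 libraries, in CPM on a log axis; each point is a library. Igkv, Igkc, Igha, Jchain and the summed Ighg, Ighv, Iglv and Iglc genes lie higher in both dd libraries than in both ff libraries, and Ighm does not.

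The kappa constant gene moved with its V segments. Igkc had 5359, 6751, 36325 and 107561 counts and rose 13.5-fold (log2 3.75, SE 0.470, edgeR adjusted p = 0.0253; 0.0918 without ff replicate 1). The libraries held 0.325, 0.352, 0.283 and 0.301 kappa V counts per Igkc count, a narrow range beside the 11.7-fold change of the sum. The IgA heavy chain gene Igha had 6847, 10052, 41243 and 122372 counts and rose 10.9-fold (edgeR adjusted p = 0.0293; 0.101 without ff replicate 1). Per Igha count there were 0.254, 0.236, 0.249 and 0.264 kappa V counts. The ratios to both constant genes thus stayed close while the levels spread widely, although the ratio to Igkc was lower in both dd libraries. The joining segments Igkj3, Igkj4 and Igkj5 rose too, from at most 4 counts in an ff library to between 17 and 76 in a dd library. They were under the filter's minimum count of 10 in both ff libraries. These joining segments entered the test through dd alone and had to differ, so their p-values are a description. Their calls were lost without ff replicate 1 (adjusted p = 0.0987, 0.0781 and 0.0852) and without dd replicate 2 (0.0944, 0.0719 and 0.0606), that of Igkj5 also without ff replicate 2 (0.0509) and that of Igkj3 also without dd replicate 1 (0.0675).

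Lambda chains, the other light chain type, differed more within ff. The 3 lambda V genes had 66, 358, 379 and 1340 counts, or 1.98, 11.5, 16.0 and 44.2 CPM. Lambda V was thus also higher in both dd libraries, and the means differed 4.47-fold. Kappa V counts stood at 26.4, 6.63, 27.1 and 24.1 times lambda V counts. Library ff 2 alone had the low ratio, and the groups overlap in it. Heavy chain V segments, 183 symbols, had 1286, 2086, 5668 and 20036 counts in sum. Kappa V counts were 1.35, 1.14, 1.81 and 1.61 times those, higher in both dd libraries.

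Single kappa segments rose in dd and none fell. Of all 160 members, 102 had a count in some library, namely 93 of the functional segments and 9 pseudogenes, and the pseudogenes together had 3, 1, 1 and 16 counts. Both dd libraries lay above both ff libraries in CPM for 80 of these 102 (78.4%), against 24.9% of 31737 genes with a count, and below for 0, against 24.2%. The other 22 overlapped. The filter on low counts passed 70 members, all functional. Every one of them reached its minimum in both dd libraries, whereas 36 reached it in no ff library, 18 in 1 and 16 in both. Members that passed through dd alone had to differ, so their count is a description.

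In edgeR's quasi-likelihood test 39 segments rose, against 4.52% of all genes tested that rose, and 0 fell, against 3.86%. Of these 39, 31 were above the filter's minimum in 0 or 1 ff library. By unadjusted p under 0.05, edgeR gave 64 segments above ff and 0 below, against 14.9% and 14.4% of all genes tested. With DESeq2, 56 segments rose and 0 fell, against 8.55% and 7.65% of all genes. Among the 16 segments above the minimum in both ff libraries, 8 rose and the fold of the means ran from 0.700 to 32.9 with a median of 8.07. The count of 39 was 6 without ff replicate 1, when 0.466% of all genes passed, and 18 without dd replicate 2, when 1.81% did. Without ff replicate 2 it was 35 and without dd replicate 1 it was 46.

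The most abundant segment over the 4 libraries was Igkv10-96, whose counts are given above. Its level was 5.22 ± 2.28 CPM in ff and 45.1 ± 40.6 CPM in dd (SD, n = 2), and with dd libraries so far apart it did not pass (log2 3.12, edgeR adjusted p = 0.0816). Igkv1-110 followed with 4, 57, 478 and 1314 counts, and missed the threshold narrowly (log2 5.04, edgeR adjusted p = 0.0502). Both dd libraries exceeded both ff libraries in each. Without 1 library, Igkv10-96 passed when dd replicate 1 was left out (adjusted p = 0.0292) and Igkv1-110 when ff replicate 2 was (0.0246).

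Igkv1-135 had 9, 7, 341 and 798 counts, low in both ff libraries and high in both dd libraries. It rose 82.4-fold from 0.247 ± 0.0322 to 20.4 ± 8.41 CPM (log2 6.34, SE 0.445, edgeR adjusted p = 0.0156; 0.0504 without ff replicate 1). Igkv14-111 had 27, 16, 240 and 1014 counts and rose 32.9-fold (edgeR adjusted p = 0.0294; 0.101 without ff replicate 1 and 0.0694 without ff replicate 2). Igkv15-103, with 70, 33, 292 and 769 counts, rose 11.9-fold. These groups did not overlap either. Leaving out a library kept the call of Igkv15-103 only in the case of dd replicate 1. Its adjusted p rose to 0.0738 with ff replicate 1 left out, to 0.0533 with ff replicate 2 left out and to 0.0606 with dd replicate 2 left out. Igkv3-2, with 48, 15, 213 and 1100 counts, rose 23.6-fold at the edge of the threshold (edgeR adjusted p = 0.0491). Among the fits with a library left out it passed only without dd replicate 1.

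Several abundant segments did not pass although both dd libraries were above both ff libraries. They were Igkv1-117 with 79, 163, 348 and 963 counts (log2 2.62, edgeR adjusted p = 0.0541), Igkv6-23 with 40, 7, 198 and 1121 (4.97, adjusted p = 0.0564), and Igkv6-15 with 35, 118, 365 and 549 (2.80, adjusted p = 0.0571). In each, the libraries of at least 1 group differed more than 2-fold in counts. Igkv9-120 with 45, 14, 138 and 995 counts (4.41, adjusted p = 0.0688) and Igkv6-17 with 17, 195, 389 and 1038 (2.91, adjusted p = 0.153) did not pass either.

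Beside Igkv1-135, the smallest p-values went mostly to segments nearly missing from ff. Igkv3-7 had 0, 1, 168 and 203 counts, a ratio of 443.4 (95% counting interval 79.1 to 17558; edgeR adjusted p = 0.0147). Igkv3-12, 96.7% identical to it, had 0, 2, 358 and 350 counts, a ratio of 423.0 (interval 116.7 to 3500; adjusted p = 0.0156). Igkv3-5 had 0, 0, 163 and 281 counts and, with the ff group set to a floor of 3 counts in all, was at least 176.9-fold higher (adjusted p = 0.0165). These 3 belong to subgroup 3, which lies nearest to the J segments, and their dd libraries were alike in level. Like Igkv1-135 and Igkv6-25, they reached the filter's minimum in no ff library. They entered the test through dd alone and had to differ, so their p-values are a description. Igkv8-30, with 27, 11, 307 and 507 counts, rose 25.5-fold (adjusted p = 0.0173), and Igkv6-25, with 8, 2, 252 and 710, rose 112.0-fold (adjusted p = 0.0211; 0.0589 without ff replicate 1). Igkv3-5, Igkv3-7, Igkv3-12 and Igkv8-30 were the 4 called segments that passed whichever library was left out. For Igkv3-12 and Igkv3-7 the fitted log2 changes then ran from 7.60 to 11.60 and from 7.56 to 10.65, the highest being without ff replicate 2, which held their ff counts.

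Segments without any ff count were common. Of the 102 with a count, 25 (24.5%) had none in ff and a count in both dd libraries, against 1.62% of genes with a count. The reverse, an ff count with none in dd, occurred for 0 segments, and its share over all genes was not computed. The dd libraries held more kappa V counts, so a segment was less likely to go unseen there. The ff libraries held few kappa V counts, and a count of 0 there allows a share of up to 0.172% in ff 1 and 0.126% in ff 2, which is what 3 counts would make. Igkv9-124, with 187 and 817 dd counts, was at least 399.9-fold higher by the same floor (edgeR adjusted p = 0.0325). Its call was lost without ff replicate 1 (adjusted p = 0.0838).

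The libraries labelled ff used fewer segments, and used them less evenly. The 5 most used segments took 54.3% and 52.8% of kappa V counts in ff 1 and ff 2, against 19.3% and 21.1% in dd 1 and dd 2. The inverse Simpson number, which is the count of equally used segments that would give the same concentration and which was estimated without depth bias, was 12.6 and 13.1 in ff and 44.1 and 41.2 in dd. The groups do not overlap, and the replicates of each lie within a few units, although the dd libraries differ severalfold in kappa V counts. Pielou evenness, which runs from 0 to 1, was 0.757 and 0.734 in ff and 0.888 and 0.860 in dd.

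**Figure D2:**
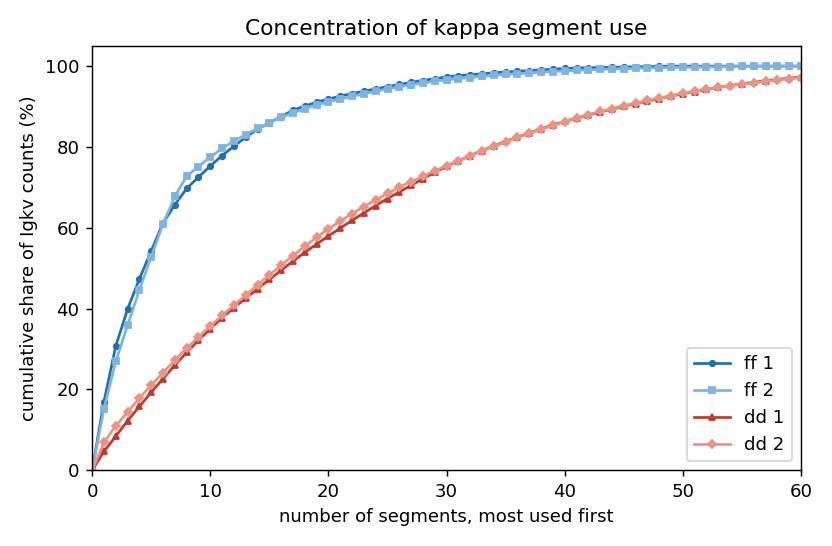
Cumulative share of kappa V counts (percent) against the number of segments, most used first, for the 4 libraries. The ff curves rise steeply, to 75.3% and 77.5% with 10 segments, and the dd curves reach 35.0% and 35.7% there.

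The number of segments seen showed the same order at equal depth. A count was found for 49, 57, 88 and 100 segments. At the smallest total of 1741 kappa V counts, the expected numbers were 49, 54.2, 77.2 and 78.4. A difference of over 20 segments between the groups therefore stands at matched read counts. Equal read counts do not equal the number of RNA molecules or cells behind them, which was not measured. The inverse Simpson number has the same limit, and the part of cell number was not tested. Heavy chain V segments gave like values, with inverse Simpson numbers of 13.8, 10.5, 40.8 and 33.3.

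The leading segment was another one in each library. Igkv6-13 led ff 1 with 17.0% of kappa V counts (95% Wilson interval 15.3 to 18.8), and Igkv4-61 led ff 2 with 15.2% (13.9 to 16.7). Igkv1-110 led dd 1 with 4.66% (4.27 to 5.08), and Igkv10-96 led dd 2 with 6.92% (6.64 to 7.20). The leaders of the ff libraries took larger shares than those of the dd libraries. Sequencing reads without molecular identifiers are not independent molecules, so these intervals and the floors cover counting error only. Segments are of nearly equal length, and shares computed from the deposited FPKM, which divide by length, differed from the count shares by at most 0.581 percentage points.

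Igkv6-13 had 296, 2, 49 and 114 counts. Nearly all ff counts came from ff 1, and the dd libraries lay between the ff libraries (edgeR adjusted p = 0.819). Its share was 17.0% in ff 1 and 0.0842% in ff 2. Igkv4-55 was the opposite, with 0, 278, 105 and 442 counts, 11.7% of kappa V counts in ff 2 and none in ff 1 (adjusted p = 0.698). Such values turn with 1 library: the log2 change of Igkv6-13 was −0.61 with all libraries and 5.42 without ff replicate 1, and that of Igkv4-55 was 1.10 and, without ff replicate 2, 11.12, when it passed (adjusted p = 0.0475).

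Igkv4-61 was high in both ff libraries, with 159, 362, 102 and 217 counts, and its mean was 8.19 ± 4.84 CPM in ff and 5.73 ± 2.01 CPM in dd (SD, n = 2). It did not pass (log2 −0.51, edgeR adjusted p = 0.542), and the log2 change was 0.27 without ff replicate 2. Its share went from 9.13% and 15.2% to 0.994% and 0.671%. Igkv5-43, with 240, 207, 325 and 875 counts, had 13.8% and 8.72% of kappa V counts in ff and 3.17% and 2.70% in dd, while its level was 6.92 ± 0.399 CPM in ff and 21.3 ± 10.7 CPM in dd (log2 1.62, adjusted p = 0.0676). For these genes a lower share in dd stood beside a level that was not shown to fall.

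The 4 segments with at least 10% in a library were Igkv6-13, Igkv4-55, Igkv4-61 and Igkv5-43, which were set apart by their values and so are only described. Together they had 20.9, 27.2, 24.6 and 54.4 CPM, or 39.9%, 35.7%, 5.66% and 5.09% of kappa V counts. The other 156 segments had 31.4, 48.9, 409.4 and 1013 CPM, a 17.7-fold difference of the means. Without the 4, the inverse Simpson numbers were 15.4 and 13.0 in ff and 41.5 and 38.6 in dd. The unevenness of the ff libraries therefore did not rest on those 4 segments alone.

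**Figure D3:**
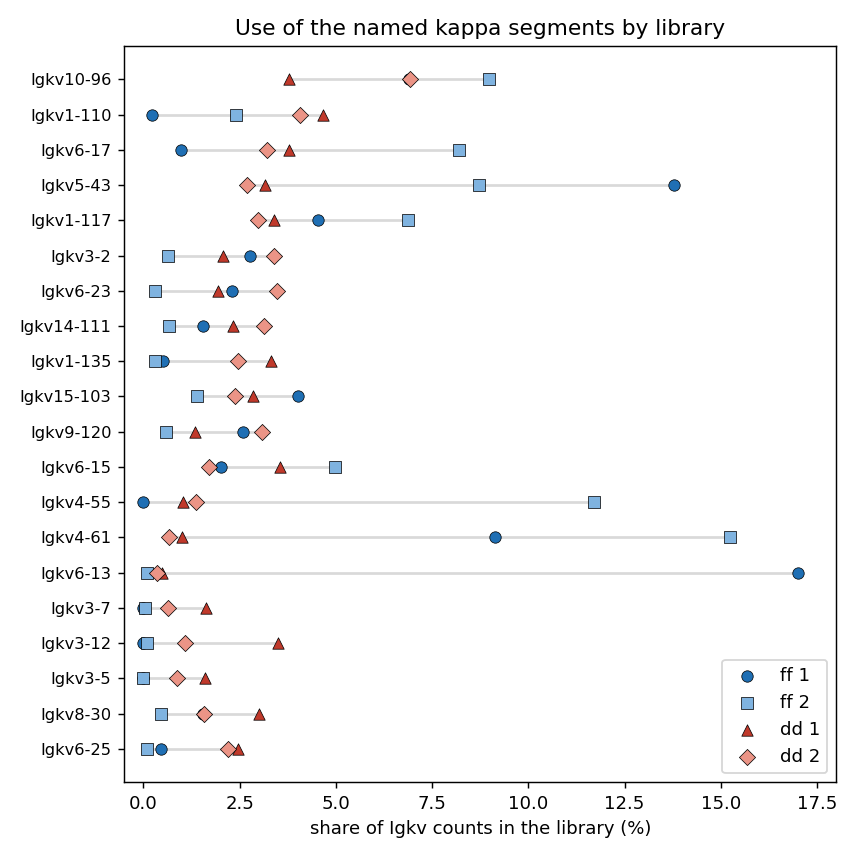
Share of kappa V counts (percent) of the 20 named segments in each of the 4 libraries; each point is a library and the grey line spans the lowest and highest share. Igkv6-13, Igkv4-61, Igkv5-43 and Igkv4-55 reach 11.7% to 17.0% in an ff library, and no segment exceeds 6.92% in a dd library.

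Over all 102 segments with a count, the share was higher in both dd libraries for 55, lower in both for 4 and overlapping for 43. The 55 include the 25 with no ff count and a count in both dd libraries. The ff libraries held fewer kappa V counts, so a rare segment could go unseen there. The split is therefore a description. The 4 with a lower share were Igkv4-61, Igkv5-43, Igkv10-94 and Igkv1-117. Igkv10-94 had 6.89% and 8.08% in ff and 2.26% and 1.14% in dd. Its relative Igkv10-96 had 6.89%, 8.97%, 3.78% and 6.92%, so that its groups overlap.

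Segment use was alike in the dd libraries and unlike in the ff libraries. The dd libraries shared 78.3% of their use, taken as the sum over segments of the smaller share, and the ff libraries 49.1%. Pairs across the groups shared 40.7% to 44.8%. Morisita's index, which allows for depth and is 1 for the same use, was 0.887 between the dd libraries, 0.575 between the ff libraries and 0.383 to 0.453 across the groups. Across the 102 segments, Pearson's r of log2 share was 0.914 in dd and 0.591 in ff and Spearman's rho 0.896 and 0.576, as a description. These points share their libraries, and the ff libraries have fewer counts. In ff, 29 segments reached 20 counts in some library and 7 in both, whereas in dd 76 did in some library and 67 in both.

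**Figure D4:**
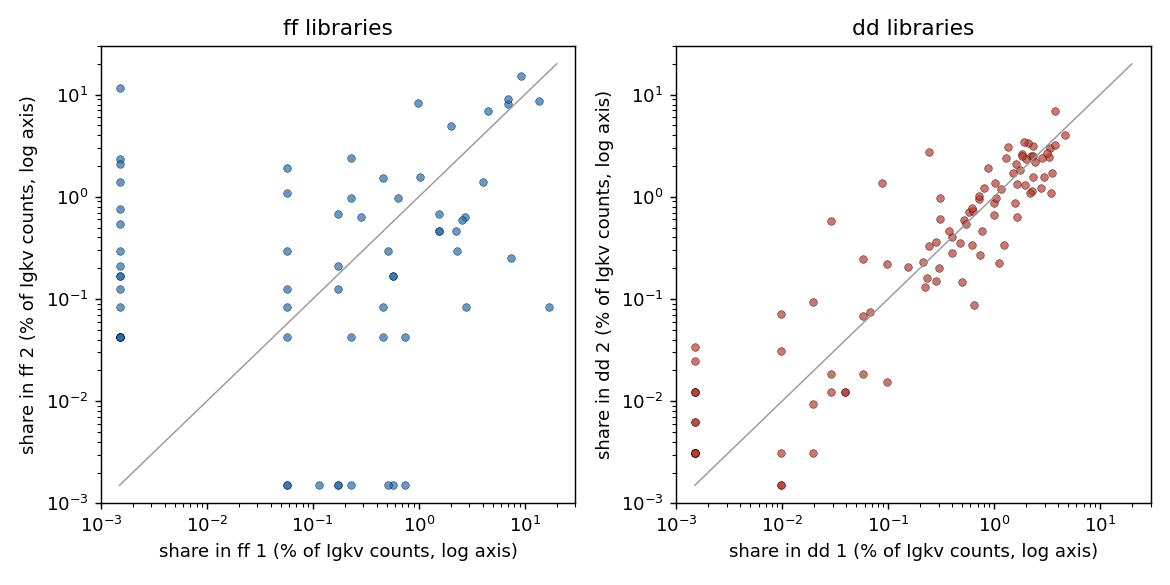
Share of kappa V counts of each segment in replicate 1 against replicate 2, for ff (left) and dd (right), on log axes in percent; the line marks equal shares and segments without a count in 1 library are drawn at the left or lower edge. The dd points lie near the line, and the ff points scatter, with Igkv6-13 at 17.0% against 0.0842%.

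The subgroups are sequence families given by the first number of the symbol, and the shares of some differed between the groups. Subgroup 3 took 3.50% and 1.89% of kappa V counts in ff and 11.5% and 8.72% in dd, and subgroup 8 took 2.99%, 2.44%, 6.81% and 6.13%. Subgroup 10, with Igkv10-94 and Igkv10-96, took 13.8% and 17.3% in ff and 6.06% and 8.06% in dd, and subgroup 5, mostly Igkv5-43, took 13.8%, 10.7%, 6.57% and 6.49%. None of these 4 overlapped between the groups. Neither did subgroups 1, 2, 9, 14, 17 and 19, higher in both dd libraries, nor subgroup 6, lower in both. Subgroup 6 barely separated, with 15.9% in ff 2 and 15.6% in dd 1, and Igkv6-13 alone took 17.0% in ff 1. In CPM, 24.9% of genes with a count were higher and 24.2% lower in both dd libraries. These separations of subgroup shares were not tested and are a description. Subgroup 4, the largest family with 33 symbols, took 16.0%, 32.4%, 18.3% and 15.9% and did overlap. In CPM all of these subgroups were higher in both dd libraries.

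**Figure D5:**
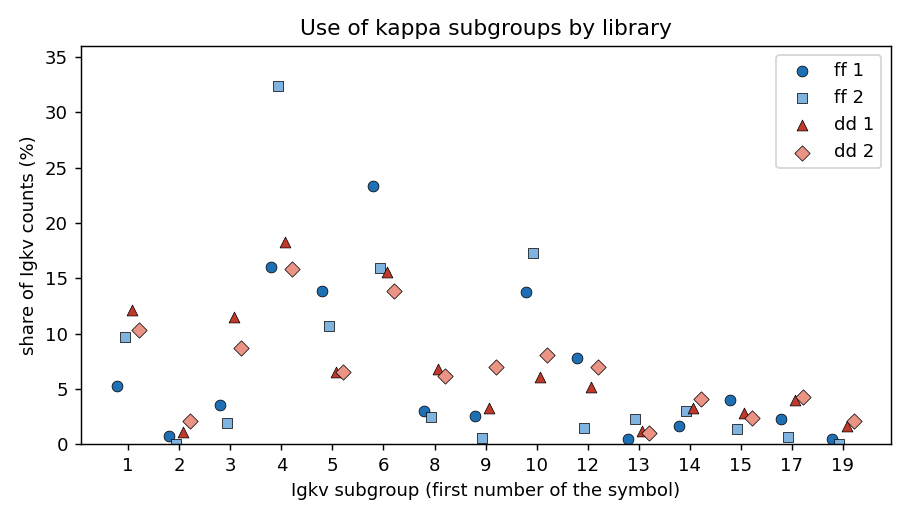
Share of kappa V counts (percent) by subgroup in each of the 4 libraries, for subgroups that reached 2% in a library; each point is a library. Subgroups 1, 2, 3, 8, 9, 14, 17 and 19 lie higher and subgroups 5, 6 and 10 lower in both dd libraries, and subgroup 4 spreads from 15.9% to 32.4%.

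Orientation and position also differed. Segments on the plus strand, 38 of the functional ones, took 23.0% and 26.5% of kappa V counts in ff and 43.8% and 41.8% in dd. Igkv6-13, Igkv4-55, Igkv4-61 and Igkv5-43, with large ff shares, all lie on the minus strand, so the strand shares partly restate theirs. Among the functional segments, ordered from the J side and taken 25 at a time, the farthest took 17.8%, 15.4%, 26.9% and 30.4%, higher in both dd libraries. The next-to-nearest set, which holds Igkv4-61, Igkv4-55 and Igkv5-43, took 38.5%, 42.1%, 25.0% and 20.4%. The nearest set took 27.6%, 19.6%, 28.9% and 24.7% and overlapped.

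In the plasma cell list 4 of 18 tested genes rose and 1 fell (median log2 change 0.40, against 0.00 over all genes tested). Jchain, which joins IgA into dimers, had 1154, 1821, 10384 and 27100 counts and rose 14.3-fold (edgeR adjusted p = 0.0246; 0.0763 without ff replicate 1). Derl3, of the secretory pathway's quality control, and Pou2af1, a B lineage coactivator, rose 7.54-fold and 6.61-fold, and the transcription factor gene Irf4 rose 2.81-fold (edgeR adjusted p = 0.0255, 0.0331 and 0.0367). Without ff replicate 1 these 3 did not pass (adjusted p = 0.0857, 0.103 and 0.140). Derl3 was lost also without ff replicate 2 (0.0537), Pou2af1 without dd replicate 2 (0.0830) and Irf4 whichever library was left out. Xbp1, Prdm1 and Sdc1, which other uterine cells express too, did not pass. The fall was Tent5c. Among heavy chain constant genes 4 of 7 tested rose and 0 fell (median 5.20), against 4.52% and 3.86% of all genes tested. The risen ones were Igha, Ighg1, Ighg2b and Ighg2c. Ighg2c, with 0 and 2 ff counts, and Ighg3, with 1 and 1, were under the filter's minimum count of 10 in ff. They entered the test through dd alone and had to differ, so the count and the median are a description. At an unadjusted p under 0.05 none of the heavy chain constant genes was lower.

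B cell markers did not rise as a set. Of 12 tested, 2 rose and 1 fell (median −0.58), with summed levels of 90.3 and 105.9 CPM in ff and 54.0 and 64.7 CPM in dd. Most of the difference in these sums came from Ebf1, with 62.2 and 75.6 CPM in ff and 26.4 and 30.5 CPM in dd. Ciita, Pou2f2 and Cd37 were also lower in both dd libraries without passing (log2 −0.79, −0.88 and −0.54). Against these, Cd79a and Cd79b were higher in both dd libraries. Cd79a and Cd79b, the signalling chains of the B cell receptor, which plasma cells can also transcribe, rose 8.39-fold and 3.91-fold (edgeR adjusted p = 0.0314 and 0.0488). Ms4a1, which encodes CD20, had 6, 3, 4 and 2 counts, and Pax5, the B cell identity factor, had 3, 2, 2 and 0. Both of these defining markers were near 0 in all 4 libraries. The fallen member, Ebf1, is also expressed by stromal cells. Cd79a passed only without dd replicate 1 among the fits with a library left out, and Cd79b in none of them. Recombination genes were near 0 as well, Rag1 with 0, 1, 1 and 0 counts and Rag2 with 0, 0, 1 and 0.

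Other cell types moved in the same libraries, and their part in the kappa result was not tested. Of the epithelial markers 5 of 9 rose (median 0.97), of the red cell markers 4 of 5 rose (1.68, summed levels 68.0 to 69.2 CPM in ff and 237.3 to 305.5 in dd) and of the oviduct markers 2 of 3 rose (1.88), with Ovgp1 4.75-fold. The remaining tested red cell marker, Hba-a2, went the other way with 205, 233, 51 and 4 counts and did not pass (log2 −2.62, edgeR adjusted p = 0.174). Of the endothelial markers 8 of 8 fell (−0.94), of the macrophage markers 5 of 9 fell (−0.88) and of the stromal markers 3 of 9 fell (−0.71). Of 9 T cell and 5 lymphatic and lymph node markers edgeR called 0; at an unadjusted p under 0.05 there were 1 and 0. Of 6 lambda chain genes tested 1 rose and 0 fell (median 3.20), and of 2 pre-B cell genes tested 0 were called (0 at an unadjusted p under 0.05). Of the genes for antibody transport and plasma cell attraction, Ccl28, a chemokine that draws IgA plasma cells, rose 7.84-fold from 108, 163, 878 and 888 counts, or 4.23 ± 1.40 to 33.2 ± 5.54 CPM (SD, n = 2; edgeR adjusted p = 0.0186), and passed whichever library was left out. Pigr, the epithelial antibody carrier, did not pass (log2 0.53, adjusted p = 0.0808), and Cxcl12 fell (−0.55, adjusted p = 0.0366), a call lost whichever library was left out.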

How the data were processed

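RNA of whole uteri, isolated with TRIzol, went into TruSeq libraries, per the labels' protocols, after poly-A purification, per the series' design text. The submitters' processing notes name STAR, edgeR and mm10; which counter, annotation and strand setting were used is not stated there. The deposited table holds whole-number counts per gene and library, the authors' rescaled counts (signal values, left unused), FPKM per the file headers (the design text says RPKM), and the authors' deposited ratio and p-value per gene, neither used here. Symbols were matched to GENCODE mouse release 21 for positions, types and sequences.

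Counts of all genes were fitted with edgeR 4.0.16 (R 4.3.3; TMM, filterByExpr with a minimum count of 10, quasi-likelihood test, Benjamini-Hochberg adjustment), 2 ff against 2 dd libraries, no block. SE is the log2 change over the root of F. The test was checked on simulated data. Fold is the ratio of mean CPM; with 0 ff counts a floor of 3 counts over the group was used, and with 1 to 3 counts a pooled ratio with an exact interval. Named segments were the 12 of highest mean CPM, those with at least 10% in a library, the 6 called with the smallest p, called lower ones, the leading ones not higher in dd and the 3 whose share differed most within a group; from each list, up to 4 genes of smallest p. Igkv10-94, Igkv5-45, Igkv9-124 and some list members were added after their values were seen. Members and lists were chosen with earlier results of these data known. Alternatives included other scalings, filters, tools (DESeq2 1.42.0, limma 3.58.1) and each library left out.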

Additional observations from a re-analysis of the deposited data

How the results depend on the processing

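The direction of the kappa V total and of its evenness held under every alternative run, and edgeR, DESeq2 and limma called 0 segments lower in each. Of the 39 segments called higher, the count was 69 with no filter, when 9.29% of all genes passed in either direction, and 61 with edgeR's exact test, when 16.5% did. It was 0 at an adjusted p under 0.01, and 6 to 46 with a library left out. For the fixed lists together, 27 members were higher and 19 lower; at an adjusted p under 0.01 these were 1 and 0, 5 were lower by at least 2-fold, and with a library left out the ranges were 3 to 23 higher and 1 to 15 lower. Fits with a library left out have 1 group of 1, and its single library is taken to vary as much as the paired ones. The difference in inverse Simpson number, dd minus ff, was 29.8, with 28.3 to 31.3 when a library was left out, 32.1 without the most abundant segment and 33.6 with the exponential of Shannon entropy. Without that segment the difference in largest share was −12.9 and in the 5 largest −38.6 percentage points, against −10.3 and −33.4. The replicate block gave 52 segments higher. The labels do not say whether same-numbered libraries were paired. Their deviations correlated at 0.0129 across genes, which cannot settle it. For changed values the cause was not tested. Kappa V counts of 1741 and 2375 limit what can be said of rare segments in ff.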

Other observations

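Among segments with no ff count, 2 were carried mostly by dd 2 and were picked out after their values were seen. Igkv12-89 had 25 and 892 counts in dd 1 and dd 2 and Igkv9-123 had 9 and 440. Neither passed edgeR's test (adjusted p = 0.113 and 0.133), although by the floor of 3 counts they were at least 365.3-fold and 178.9-fold higher.

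The functional segments Igkv1-131, Igkv1-35, Igkv2-137, Igkv20-101-2, Igkv4-71, Igkv6-29 and Igkv7-33 had no count in any library. The IgM heavy chain gene Ighm had 509, 505, 319 and 248 counts and did not pass (log2 −0.54, edgeR adjusted p = 0.249), while the summed Ighg genes had 54, 86, 2243 and 9077 counts. Kappa V counts per Ighg count were 32.2 and 27.6 in ff and 4.58 and 3.56 in dd, and the groups did not overlap.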
